A study of Mus musculus with 8 samples.

Results

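ADAM proteases were examined in LLC cells, a mouse Lewis lung carcinoma line, grown in culture as wild-type cells or as ΔAgo2 cells, in which the gene of the small-RNA-binding protein Argonaute 2 was targeted. The 9 genes described are Adam8, Adam9, Adam10, Adam12, Adam15, Adam17, Adam19, Adam22 and Adam23, out of 34 genes of the ADAM family in a table of 55487 genes. They were chosen by name around Adam19, whose fall in ΔAgo2 cells was already known from these same libraries, so that the genotype values of the 9 genes are given as a description, and no test of them is used as support. RNA-seq was made from 4 wild-type and 4 ΔAgo2 libraries, numbered as biological replicates. The sample titles name no batch, and both genotypes were kept in the same serum-containing medium.

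The ΔAgo2 cells were made with a lentiviral CRISPR-Cas9 vector and puromycin selection, and the methods describe sorting of single cells to obtain clones. Whether the 4 ΔAgo2 libraries came from 1 clone, and whether the wild-type cells carried a control vector, is not given in the sources used here, so that a difference between genotypes cannot be told apart from a difference between clones. The replicates are not stated to come from separate derivations of the knockout.

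ADAM proteins are membrane-anchored proteins with a prodomain, a metalloprotease domain, a disintegrin domain and a short cytoplasmic tail. Members with an active protease cut other membrane proteins close to the cell surface, which releases growth factors, cytokines and receptor ectodomains, and members without one act as receptors or adhesion proteins. Convertases such as Furin remove the prodomain, and iRhoms and tetraspanins guide some members to the surface. Adam10 and Adam17 are the best known sheddases, for Notch and amyloid precursor protein and for tumour necrosis factor and epidermal growth factor receptor ligands, respectively.

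Each wild-type library held 40740643 to 68530912 counts in total, and each ΔAgo2 library 39628101 to 57595675. Wild-type replicate 4 stood apart. Its median Spearman correlation with the other libraries of its group was 0.864, against 0.948 to 0.961 for the other wild-type libraries, and its deviation from them went with the GC content of genes (Spearman rho 0.72 across 14226 genes, which are not independent replicates). Fold changes of the 9 genes that rest on it are given with and without it, and so are those of many genes of the other lists, but not all. Ago2 RNA, scaled to library size as counts-per-million (CPM), had a wild-type mean of 303.6 ± 165 and a ΔAgo2 mean of 351 ± 55.7 (SD, n = 4 each). A level of RNA does not show whether the gene was edited. The study examined Ago2 protein in wild-type and ΔAgo2 LLC cells by western blot, which is not part of these data. Of the markers examined, all 5 leukocyte genes had at most 3 counts in any library. Summed levels of 5 mesenchymal genes were 4806 to 8390 CPM in the wild-type and 6749 to 7592 CPM in the ΔAgo2 libraries. Nearly all of this was Vim (4336 and 4946 CPM on average in wild-type and ΔAgo2 libraries) and Fn1 (2364 and 2131 CPM). Pdgfra was at 31.3 and 53.9 CPM, Pdgfrb at 3.13 and 0.609 CPM and Col1a1 at 1.46 and 1.29 CPM. The line is labelled lung carcinoma, and all 3 lung epithelial markers were at or near 0. Of the 5 general epithelial markers, the keratins Krt8 and Krt18 were present, Krt19 and Cdh1 were low and Epcam was at or near 0. The summed level of the 5 ran from 114 to 1259 CPM in wild-type and from 313 to 509 CPM in ΔAgo2 libraries. Krt8 and Krt18 were at 226 and 260 CPM on average in wild-type libraries and 136 and 239 CPM in ΔAgo2 libraries. Wild-type replicate 4 held 654 and 601 CPM of them. Their log2 fold changes, ΔAgo2 over wild-type, were -0.74 and -0.12, but 0.70 and 0.72 without that replicate.

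The sequences upstream of Adam19 and Adam10 are shown for their contrast in CpG and GC box content, Adam19 being the gene without reads in most ΔAgo2 libraries and Adam10 an abundant one in both genotypes. They are the 250 bases before the transcription start in RefSeq (GRCm38.p6), Adam19 at chr11:46055734-46055983 and Adam10 at chr9:70678732-70678981, both on the plus strand. Capitals mark GC boxes (GGGCGG on either strand, the letters read by Sp factors).
Adam19: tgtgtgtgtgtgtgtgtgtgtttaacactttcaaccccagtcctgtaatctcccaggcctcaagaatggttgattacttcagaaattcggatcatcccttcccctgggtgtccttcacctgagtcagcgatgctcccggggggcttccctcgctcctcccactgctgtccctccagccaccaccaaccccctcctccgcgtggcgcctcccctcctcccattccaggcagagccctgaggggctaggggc
Adam10: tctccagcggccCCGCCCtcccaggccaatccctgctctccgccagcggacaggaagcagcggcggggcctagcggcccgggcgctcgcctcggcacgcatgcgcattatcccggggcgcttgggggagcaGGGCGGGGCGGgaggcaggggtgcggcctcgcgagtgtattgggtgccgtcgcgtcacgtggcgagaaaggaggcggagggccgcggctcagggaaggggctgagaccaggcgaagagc
The Adam19 sequence held 7 CpG dinucleotides and no GC box, and the Adam10 sequence held 29 CpG dinucleotides and 3 GC boxes.

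Across 7 of the 9 genes with an entry in the promoter table, the CpG count was 6 for Adam8, 7 for Adam19, 17 for Adam22, 18 for Adam15, 23 for Adam17, 27 for Adam23 and 29 for Adam10. The median over all 32841 promoters was 6, so Adam8 and Adam19 lay near the middle of all promoters and the other 5 genes lay above it. A GC box was present upstream of Adam8, Adam15 and Adam17 (1 each), while none was found for Adam19, Adam22 or Adam23, against 32.7% of all promoters with at least 1. Adam22 and Adam23, which have little RNA in these cells, had CpG-rich upstream sequences, so CpG count did not order these genes by their RNA level. The Adam19 sequence also lacked the CCAAT box (the letters CCAAT on either strand), which 33.9% of all promoters held. The same was true of the TATA box (TATAAA on either strand, 12.4% of all promoters) and of the E-box (its palindrome CACGTG, 6.02%). No match says only that these letters are not in the 250 bases.

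Because Argonaute 2 loads microRNAs, which pair through a seed (bases 2 to 8) with sites in 3′ untranslated regions (3′ UTRs), the seeds of 7 widely studied microRNAs were searched in the 3′ UTRs of the 9 genes. The mature sequences of the 2 microRNAs with matches in Adam19 are shown with the seed in capitals.
miR-29a-3p: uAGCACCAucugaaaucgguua
miR-30a-5p: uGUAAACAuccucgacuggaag
The Adam19 3′ UTR of 3498 bases held 2 matches to the 7-base seed of miR-29a-3p and 1 to that of miR-30a-5p, the latter followed by the A that makes an 8-base match. They are shown in DNA letters on the coding strand (plus, GENCODE annotation of GRCm38), with the match in capitals, at chr11:46144607-46144628, chr11:46145231-46145252 and chr11:46147213-46147234, in that order.
Adam19 miR-29a-3p, first match: ctatcctaTGGTGCTttggtgg
Adam19 miR-29a-3p, second match: ctcttgctTGGTGCTccgctat
Adam19 miR-30a-5p match: ctattgatTGTTTACAatattt
Of 11901 tested genes with a 3′ UTR, 14.0% held a 7-base match for miR-29a-3p and 14.8% for miR-30a-5p, in 3′ UTRs of a median 976 bases. Per kilobase, Adam19 held 0.572 matches for miR-29a-3p against 0.114 over all tested genes, and 0.286 matches for miR-30a-5p against 0.122, from counts of 2 and 1. These 2 seeds were picked for having a match, so a value above that over all genes was fixed in advance. The other seeds had no match in Adam19, against 0.0519 (miR-21a-5p) to 0.219 (miR-16-5p) matches per kilobase over all tested genes. Over all 7 seeds, Adam19 held 0.858 matches per kilobase, and no excess is read from these values. MicroRNA levels were not measured in these libraries, and a match is not a site known to be bound.

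The other genes carried different matches. Adam9 held an 8-base match for miR-30a-5p at chr8:24949942-24949963 (minus strand) and 1 for miR-17-5p, and Adam22 held an 8-base match for miR-30a-5p at chr5:8078665-8078685 (minus strand).
Adam9 miR-30a-5p match: ctctagaaTGTTTACAtttact
Adam22 miR-30a-5p match: gaacaacTGTTTACAtgtgac
Adam17 held 2 matches of 7 bases for miR-29a-3p, Adam15 held 1 for miR-29a-3p and 1 for miR-16-5p, and Adam8 held an 8-base match for let-7a-5p. Adam12 held 7 matches to 4 of the seeds in a 3′ UTR of 4743 bases. Adam10 and Adam23 held no match to any of the 7 seeds, in 3′ UTRs of 2135 and 3620 bases. The genes that share the miR-30a-5p match are Adam9, Adam12, Adam19 and Adam22. Their levels in each genotype are given next, and Adam12 had too few counts for a fold change. A link between the matches and these levels was not tested.

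Adam19 (chr11:46055992-46147343, plus strand, 23 exons in the longest coding transcript), a protease also called meltrin beta that can shed neuregulin, had the largest difference between genotypes of the 9 genes. Wild-type replicates 1 to 4 held 656, 121, 350 and 208 reads of Adam19, and ΔAgo2 replicates 1 to 4 held 1, 0, 0 and 0 (values are listed in this order throughout). These were 13.3, 1.71, 5.20 and 6.46 CPM in wild-type libraries and 0.0163, 0, 0 and 0 CPM in ΔAgo2 libraries. All 4 wild-type libraries carried Adam19 reads, replicate 2 the fewest and replicate 1 the most, and the 4 ΔAgo2 libraries together carried a single read. With mean levels of 6.68 ± 4.87 CPM in the wild-type and 0.00407 ± 0.00814 CPM in ΔAgo2 (SD, n = 4 each), and with the ΔAgo2 libraries at or under a floor of 3 counts each, Adam19 was at least 107-fold lower in ΔAgo2 cells. In bulk RNA, fewer cells with the transcript and less transcript per cell cannot be told apart.

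**Figure D1:**
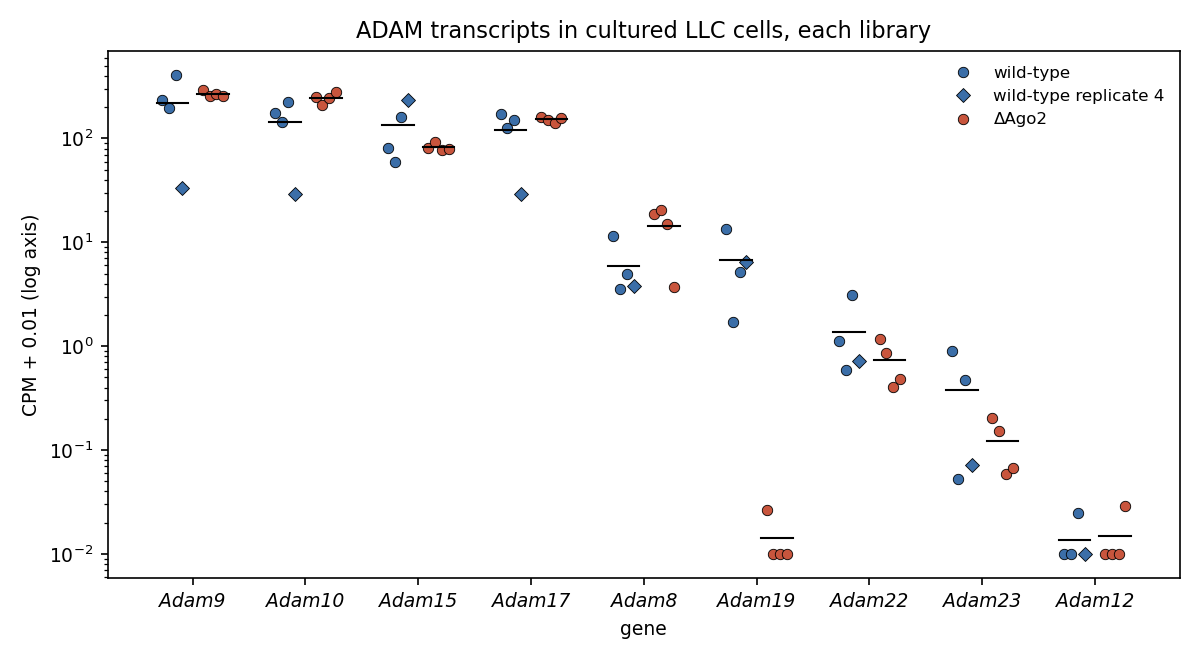
CPM plus 0.01 on a log axis for the 9 ADAM genes, ordered by wild-type TPM, with 1 point per library (blue wild-type, diamond wild-type replicate 4, red ΔAgo2) and a line at each group mean. Adam19 is the gene whose groups are separated, at 1.71 to 13.3 CPM in the wild-type and 0 to 0.0163 CPM in ΔAgo2 libraries, and wild-type replicate 4 lies below the other libraries for Adam9, Adam10 and Adam17.

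Of the 7 ADAM genes with enough counts to be tested, 1 (Adam19, lower) passed a Benjamini-Hochberg adjusted p of 0.05 in edgeR's quasi-likelihood test, beside 0.295% of the 14228 genes tested, with 0.218% of all genes tested lower and 0.0773% higher in ΔAgo2 cells. The groups did not overlap in CPM for Adam19 alone among the 7, beside 6.07% of all tested genes, 2.98% with lower and 3.09% with higher values in ΔAgo2 libraries. Since Adam19 was picked from this contrast, nothing is read from these counts. Adam12 and Adam23 had too few counts for the test. Adam19 entered the test only through its wild-type libraries, and the call was not made without ΔAgo2 replicate 1, the only ΔAgo2 library with a read, where 1 gene was called in all, and with log2(TPM + 1), a scale that compresses low levels.

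The sheddases Adam10 and Adam17 and their relative Adam9 were the most abundant of the family together with Adam15. In transcripts-per-million (TPM), which adjusts for transcript length and so allows genes to be compared, wild-type replicates 1 to 4 held 175.73, 188.26, 342.27 and 17.86 TPM of Adam9. ΔAgo2 libraries held 220.37 to 270.09 TPM of Adam9. Adam10 ran from 109.53 to 155.89 TPM in wild-type replicates 1 to 3, was at 13.24 TPM in replicate 4, and ran from 153.86 to 203.49 TPM in ΔAgo2 libraries. Within wild-type libraries the mean TPM fell in the order Adam9, Adam10, Adam15, Adam17, Adam8, Adam19, Adam22, Adam23 and Adam12. The libraries of neighbouring genes in this order overlapped except where Adam17 (9.0 to 74.69 TPM) gave way to Adam8 (1.81 to 7.65 TPM), where Adam19 (0.94 to 5.79 TPM) gave way to Adam22 (0.11 to 0.73 TPM), and at Adam12, listed at 0 TPM in all wild-type libraries. Adam19 was thus a minor ADAM transcript in wild-type cells, with a mean of 0.890% ± 0.686 of the summed TPM of the 9 genes (SD, n = 4).

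**Figure D2:**
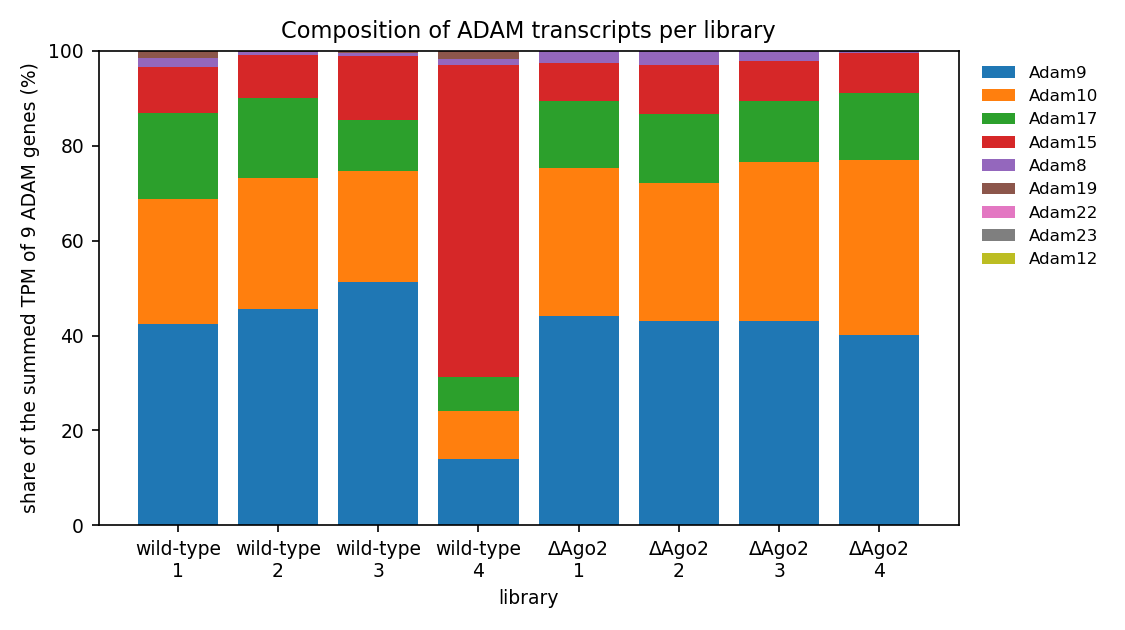
Share of the summed TPM of the 9 ADAM genes (percent) in each of the 8 libraries, with 1 colour per gene. Adam9, Adam10 and Adam17 together make up 85.4% to 91.2% in 7 libraries and 31.2% in wild-type replicate 4, where Adam15 makes up 65.8%.

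The summed level of the 9 genes was 414.70, 413.39, 667.32 and 128.73 TPM in wild-type and 611.86, 528.94, 510.90 and 551.09 TPM in ΔAgo2 replicates 1 to 4. The composition was alike in 7 of the 8 libraries. In wild-type replicates 1 to 3 and in the 4 ΔAgo2 libraries, Adam9 took 40.1% to 51.3% of the sum, and in wild-type replicate 4 it took 13.9%. Adam19 itself added 0.94 to 5.79 TPM to the wild-type sums.

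Adam10 (chr9:70678997-70780229, plus strand), the protease that cuts Notch receptors and amyloid precursor protein, was at 174, 143, 224 and 29.3 CPM in the wild-type and 249, 208, 247 and 283 CPM in the ΔAgo2 replicates 1 to 4. Wild-type replicate 3 lay within the ΔAgo2 range, and replicate 4 lay far below all other libraries. The log2 fold change, ΔAgo2 over wild-type, was 0.79 (SE 0.49), and 0.46 (SE 0.19) without wild-type replicate 4. Adam10 was thereby the abundant ADAM gene with the largest positive difference, and its value stayed above 0 in all 19 other settings, with a range of 0.46 to 1.32.

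Adam17 (chr12:21323509-21373632, minus strand), the tumour necrosis factor converting enzyme, was at 173, 127, 151 and 29.0 CPM in the wild-type and 162, 152, 140 and 158 CPM in the ΔAgo2 replicates. The ΔAgo2 libraries lay within the range of wild-type replicates 1 to 3. The log2 fold change was 0.35 (SE 0.45), and 0.034 (SE 0.15) without wild-type replicate 4. Nearly all of this difference came with that library.

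Adam9 (chr8:24949611-25016927, minus strand), or meltrin gamma, a protease with a broad set of substrates, was at 234, 198, 411 and 33.1 CPM in the wild-type and 295, 258, 268 and 258 CPM in the ΔAgo2 replicates. Wild-type libraries spread on both sides of the ΔAgo2 libraries. The log2 fold change was 0.30 (SE 0.56) and turned to -0.054 (SE 0.25) without wild-type replicate 4, the only one of 19 other settings in which the sign of any of the 7 tested genes among the 9 changed.

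Adam15 (chr3:89338542-89349996, minus strand), whose disintegrin domain can bind integrins, was at 81.4, 58.9, 162 and 235 CPM in the wild-type and 80.9, 92.4, 78.3 and 79.5 CPM in ΔAgo2 replicates. Wild-type replicates 3 and 4 were higher than every ΔAgo2 library and replicate 2 was lower. Its log2 fold change was -0.70 (SE 0.41), -0.28 (SE 0.30) without wild-type replicate 4 and -0.34 after a correction for GC content. In CPM, Adam15 was the only one of the 4 abundant genes that was higher in wild-type replicate 4 than in the other wild-type libraries. In TPM, its level in replicate 4 (84.69) was below that in replicate 3 (90.17).

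**Figure D3:**
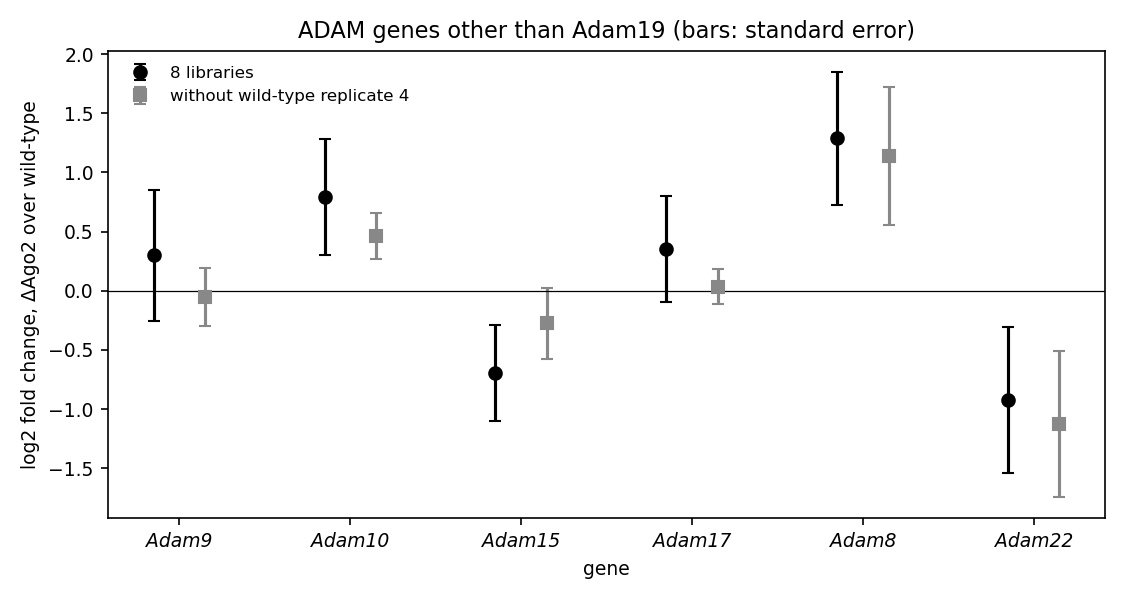
Log2 fold change, ΔAgo2 over wild-type, of the 6 tested ADAM genes other than Adam19, from all 8 libraries (black circles) and without wild-type replicate 4 (grey squares), with bars of 1 standard error. Adam9 moves from 0.30 to -0.054 and Adam17 from 0.35 to 0.034 without that library, while Adam8 stays above 0 (1.29 and 1.14) and Adam22 below 0 (-0.92 and -1.12).

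On the log2 scale, wild-type replicate 4 differed from the mean of the other wild-type libraries by -2.60 for Adam10 (42.1% GC), -2.36 for Adam17 (45.1% GC), -3.01 for Adam9 (46.6% GC) and 1.35 for Adam15 (57.9% GC). Adam19 (53.1% GC) differed by 0.39, Adam22 (44.8% GC) by -0.80 and Adam8 (54.9% GC) by -0.62. The median over all tested genes was -0.022, and the median GC content was 49.6%. The part of GC content in the level of each ADAM gene was not tested.

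ΔAgo2 libraries were close to each other for the abundant ADAM genes. The SD of log2 CPM among ΔAgo2 libraries was 0.09 for Adam9, 0.09 for Adam17, 0.11 for Adam15 and 0.18 for Adam10, beside a median of 0.24 over all tested genes. Among wild-type libraries it was 1.57, 1.19, 0.91 and 1.32 for the same genes, and 0.55, 0.22, 0.74 and 0.32 without replicate 4, beside medians of 0.80 and 0.43. The wild-type spread was thus the wider one for the median gene as well. Adam8 spread widely in both genotypes, with an SD of 0.78 in wild-type and 1.14 in ΔAgo2 libraries.

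Adam8 (chr7:139978932-139992562, minus strand), a protease of leukocytes and of invasive tumour cells, was at 11.5, 3.51, 4.92 and 3.79 CPM in the wild-type and 18.9, 20.3, 15.0 and 3.75 CPM in ΔAgo2 replicates. ΔAgo2 replicates 1 to 3 lay above every wild-type library, and ΔAgo2 replicate 4 lay among the wild-type libraries. The means were 5.93 ± 3.76 and 14.5 ± 7.49 CPM (SD, n = 4 each), and the log2 fold change was 1.29 (SE 0.56). Its value was above 0 in every setting, from 1.08 to 1.83. The leukocyte markers were at 3 counts or fewer in every library, too low to show a difference, and their part in the Adam8 value was not tested.

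Adam12 (chr7:133883199-134232146, minus strand), or meltrin alpha, a relative of Adam19 known from muscle and placenta, was read once in wild-type replicate 3 and once in ΔAgo2 replicate 4, with 0 counts in the other 6 libraries. Both genotypes were therefore at the floor, and a difference was not detectable at this depth. The meltrins hence stood at 3 different levels in these cells, with Adam9 abundant, Adam19 low and lost in ΔAgo2 libraries, and Adam12 at the floor.

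Adam22 and Adam23 lack an active protease and serve in neurons as receptors of the secreted LGI proteins. Adam22 (chr5:8072352-8368160, minus strand) had 55, 41, 207 and 23 counts in the wild-type and 72, 36, 16 and 25 counts in the ΔAgo2 replicates, with a log2 fold change of -0.92 (SE 0.62). The groups overlapped, and the largest value was that of wild-type replicate 3. Adam23 (chr1:63445891-63596276, plus strand) had 44, 3, 31 and 2 counts in the wild-type and 12, 6, 2 and 3 counts in the ΔAgo2 replicates, or 0.365 ± 0.402 and 0.111 ± 0.0705 CPM. Its wild-type mean rested on replicates 1 and 3. In CPM, wild-type replicate 4 (0.0621) lay within the ΔAgo2 range of 0.0490 to 0.195, and replicate 2 (0.0425) lay just below it.

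The other 25 ADAM genes were mostly silent. No read was found for 12 of them, and 5 had enough counts to be tested, with 0 past the adjusted p of 0.05 in edgeR or DESeq2 and 0 at an unadjusted p under 0.05, beside 7.34% of all tested genes (2.72% higher and 4.62% lower in ΔAgo2 cells). Their median log2 fold change was 0.41, beside -0.11 over all tested genes, and the 5 were Adam1a (0.41), Adam3 (0.79), Adam5 (0.90), Adam11 (-0.60) and Adam33 (-0.13). The last 2 turned to 0.025 and 0.45 without wild-type replicate 4. Adam4 and Adam32 reached 17 and 32 counts in their highest library and were not tested. These genes stood at or below a mean of 1.33 CPM in either genotype, so that the 4 abundant genes above carried nearly all ADAM reads. Of the 19 ADAMTS genes, secreted relatives that cut the extracellular matrix, 9 were tested and none passed in edgeR, with 1 lower at an unadjusted p under 0.05 and a median of -0.47. The more abundant Adamts14, Adamts1, Adamts4 and Adamts6 had log2 fold changes of 0.40, -0.81, -0.47 and 0.94. Adamts10 was the only tested one whose groups did not overlap, beside 2.98% of all tested genes lower and 3.09% higher in ΔAgo2 libraries. It was at 54.8 ± 8.06 CPM in the wild-type and 31.3 ± 1.43 CPM in ΔAgo2 libraries. Its log2 fold change was -0.81 (SE 0.23, Benjamini-Hochberg adjusted p = 0.318 in edgeR's quasi-likelihood test). It passed in DESeq2 (adjusted p = 0.0364), as did Adamts2, which had too few counts for edgeR and 4 to 34 counts in wild-type against 0 to 4 in ΔAgo2 libraries.

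**Figure D4:**
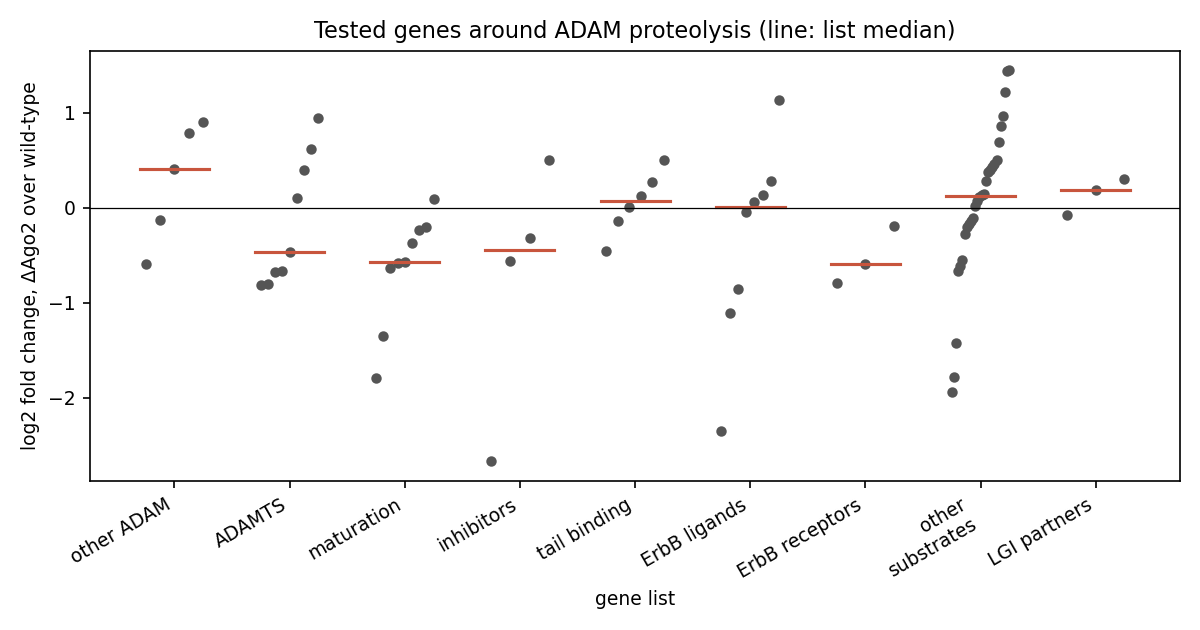
Log2 fold change, ΔAgo2 over wild-type, of tested genes in 9 lists around ADAM proteolysis, with 1 point per gene and a line at each list median. No gene shown passed the adjusted p of 0.05, and the list medians run from -0.59 (ErbB receptors) to 0.41 (other ADAM genes).

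Genes that mature, traffic or inhibit ADAM proteases did not pass the edgeR test either. Of 13 genes for maturation, 9 were tested, and 2 were lower at an unadjusted p under 0.05, beside 4.62% of all tested genes. Of the 9, 8 had a value below 0. The list median was -0.57, and -0.080 without wild-type replicate 4, beside -0.11 and -0.037 over all tested genes. Furin, which cuts the prodomain, had a log2 fold change of -0.63 (SE 0.41), and Rhbdf1 and Rhbdf2, the iRhoms that carry Adam17, had -0.59 (SE 0.36) and -0.20 (SE 0.33). Frmd8, which stabilises the iRhom complex, had -0.57 (SE 0.50). Without wild-type replicate 4, Furin and Rhbdf1 were at -0.060 and -0.10 and Frmd8 was at 0.11. Tspan17, a tetraspanin partner of Adam10, was at 26.9 ± 16.3 CPM in the wild-type and 7.76 ± 1.44 CPM in ΔAgo2 libraries without overlap, with a log2 fold change of -1.79 (SE 0.45) and a Benjamini-Hochberg adjusted p of 0.241 in edgeR's quasi-likelihood test. It passed in DESeq2 (adjusted p = 0.0111). It was the only one of the 9 without overlap, beside 2.98% of all tested genes lower and 3.09% higher in ΔAgo2 libraries. Tspan14, another such partner, had 0.093 (SE 0.30).

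Of the 5 inhibitor genes, Timp1, Timp2, Timp3 and Reck were tested, with 0 calls in edgeR. At an unadjusted p under 0.05, 1 gene was lower, beside 4.62% of all tested genes. The median was -0.45, and 0.054 without wild-type replicate 4. Timp3, which blocks Adam17 and Adam10 among others, had a log2 fold change of -2.67 (SE 0.70), from 5.58 ± 4.18 CPM in wild-type to 0.874 ± 0.330 CPM in ΔAgo2 libraries, with overlapping libraries and a Benjamini-Hochberg adjusted p of 0.277 in edgeR's quasi-likelihood test. The same gene passed in DESeq2 (adjusted p = 0.00388) and in edgeR without wild-type replicate 2 (adjusted p = 0.0445). Timp2, the most abundant of the inhibitors, had -0.57 (SE 0.44), Timp1 had -0.32 (SE 0.39) and Reck had 0.51 (SE 0.43). Without wild-type replicate 4, Timp2 was at -0.093 and Timp1 at 0.20. Of 6 proteins that bind the cytoplasmic tails of ADAMs, all were tested and none passed in edgeR or DESeq2. Among them, 1 was higher at an unadjusted p under 0.05, beside 2.72% of all tested genes, and the median was 0.065. Pacsin2, Sh3pxd2a, Sh3pxd2b and Pacsin3 had log2 fold changes between -0.14 and 0.27, and the lowest of these, Sh3pxd2b, was at 0.28 without wild-type replicate 4. Snx9, an endocytic protein reported to bind tails of this family, had 0.51 (SE 0.23), with higher values in all 4 ΔAgo2 libraries than in any wild-type library. Such a separation toward higher ΔAgo2 values was found in 3.09% of all tested genes.

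Ligands and receptors cut by ADAM proteases were mostly expressed. Of 11 ErbB ligands, 8 were tested and none passed in edgeR. At an unadjusted p under 0.05, 1 was higher and 1 lower, beside 2.72% and 4.62% of all tested genes. The median was 0.0082, and -0.21 without wild-type replicate 4. Nrg1, or neuregulin, a ligand that Adam19 can shed, was at 1.62 ± 1.14 CPM in the wild-type and 0.319 ± 0.220 CPM in ΔAgo2 libraries without overlap, a log2 fold change of -2.35 (SE 0.65, Benjamini-Hochberg adjusted p = 0.287 in edgeR's quasi-likelihood test). It passed in DESeq2 (adjusted p = 0.0103). Tgfa, a ligand shed by Adam17, was higher in all 4 ΔAgo2 libraries than in any wild-type library, at 10.1 ± 3.82 against 4.59 ± 2.38 CPM, with a log2 fold change of 1.14 (SE 0.48) and no call. Nrg1 and Tgfa were the only tested ligands without overlap, beside 2.98% of all tested genes lower and 3.09% higher in ΔAgo2 libraries. Areg, Ereg and Hbegf, the more abundant ligands, had 0.13 (SE 0.57), 0.28 (SE 0.76) and -0.041 (SE 0.53), and Btc had -1.11 (SE 0.79). Areg and Ereg turned to -0.14 and -0.10 without wild-type replicate 4, and Hbegf was at -0.25. The receptors Egfr, Erbb2 and Erbb3 had -0.19, -0.59 and -0.79, with 0 at an unadjusted p under 0.05, and Erbb4 had no read. Without wild-type replicate 4 the receptor median moved from -0.59 to -0.36, with Erbb2 at 0.0040, Egfr at -0.36 and Erbb3 at -1.01.

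Of 33 other shed proteins, 28 were tested and none passed in edgeR. Before adjustment, 3 of the 28 had p under 0.05 with higher values in ΔAgo2 cells, and 2 with lower values. The same held for 2.72% and 4.62% of all tested genes, respectively. The median log2 fold change of the 28 was 0.13. The 5 most abundant were Axl (0.50), Cd44 (0.45), Sdc4 (0.016), Aplp2 (0.071) and Csf1 (0.28), all cell-surface proteins with ectodomains that can be released. Without wild-type replicate 4, Sdc4 was at 0.33 and Aplp2 at -0.045. Il6ra, the interleukin-6 receptor shed by Adam10 and Adam17, was higher in all ΔAgo2 libraries, at 52.0 ± 7.43 against 19.1 ± 9.59 CPM, with a log2 fold change of 1.44 (SE 0.39, Benjamini-Hochberg adjusted p = 0.284 in edgeR's quasi-likelihood test). It passed in DESeq2 (adjusted p = 0.0299). Vcam1 was also higher in all ΔAgo2 libraries, at 372 ± 125 against 137 ± 71.1 CPM. Its log2 fold change was 1.45 (SE 0.43, Benjamini-Hochberg adjusted p = 0.346 in edgeR's quasi-likelihood test). Of the 28, 3 were higher and 1 lower in ΔAgo2 libraries without overlap, beside 3.09% and 2.98% of all tested genes. Ptk7, a receptor-like protein of Wnt signalling that can be shed, was lower in all ΔAgo2 libraries, at 50.9 ± 14.8 against 175 ± 137 CPM, with a log2 fold change of -1.78 (SE 0.50, Benjamini-Hochberg adjusted p = 0.313 in edgeR's quasi-likelihood test) and -1.08 without wild-type replicate 4, and it passed in DESeq2 (adjusted p = 0.0344). App, the amyloid precursor protein cut by Adam10, had 36, 3, 180 and 5 counts in the wild-type and 1, 0, 0 and 0 counts in the ΔAgo2 replicates, which is at least 14.4-fold lower in ΔAgo2 cells, or at least 4.95-fold without wild-type replicate 3. It was named after its values were seen, since it shares with Adam19 the single read in ΔAgo2 replicate 1, and it was too low to enter the edgeR test. App passed in DESeq2 (adjusted p = 1.37e-04) and in edgeR without a filter on low counts (adjusted p = 0.0128). DESeq2 called 399 genes in all and edgeR without the filter 143, against 42 in edgeR with it. Since App was picked from this contrast and stands on its wild-type reads, most of them in replicate 3, nothing is read from these calls. Of the 6 LGI genes and scaffold proteins that partner Adam22 and Adam23, Lgi2 (0.18), Dlg1 (0.30) and Dlg4 (-0.076) were tested (-0.054, -0.016 and -0.039 without wild-type replicate 4), with 0 past the adjusted p in edgeR or DESeq2 and 0 at an unadjusted p under 0.05.

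The genes around Adam19 on chromosome 11 were described to see whether other transcripts in the region were lost in ΔAgo2 libraries. Of 46 annotated genes within 1 Mb on each side, 29 had no read in any library and 8 were tested. Cyfip2 (chr11:46193850-46312859, minus strand), a regulator of actin through the WAVE complex and downstream of Adam19, was lower in ΔAgo2 libraries and the only one that passed, beside 0.295% of all tested genes. It had 40, 23, 87 and 16 counts in the wild-type and 0, 1, 0 and 0 counts in the ΔAgo2 replicates, at least 11.7-fold lower in ΔAgo2 cells (Benjamini-Hochberg adjusted p = 0.0247 in edgeR's quasi-likelihood test). Cyfip2 entered the test only through its wild-type libraries, so that nothing is read from this call. The call was also lost without wild-type replicate 1 (adjusted p = 0.0584 in edgeR) and without any 1 of the ΔAgo2 libraries (adjusted p = 0.0984 to 0.135 in edgeR), while the direction held. Clint1, Lsm11, Gm12166 and Med7, which lie between -0.37 and 0.10 on the log2 scale, were read in all libraries of both genotypes. Havcr2, on the far side of Cyfip2, had a log2 fold change of 0.57 (SE 0.86), which was 0.23 without wild-type replicate 4. Genes read in every library therefore lay on both sides of Adam19 and Cyfip2.

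**Figure D5:**
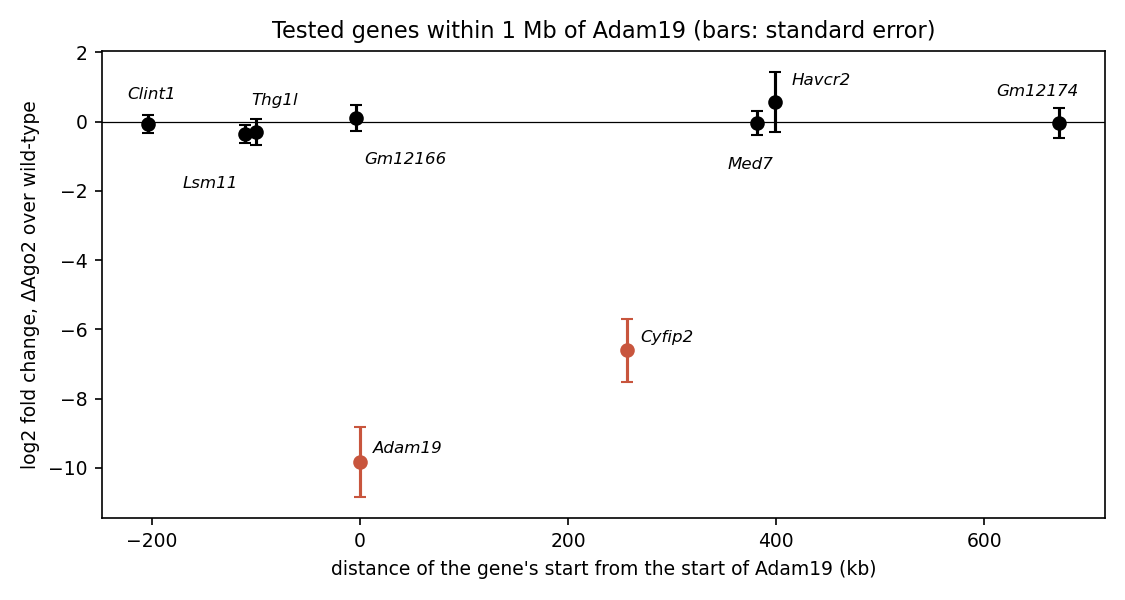
Log2 fold change, ΔAgo2 over wild-type, with bars of 1 standard error, of tested genes within 1 Mb of Adam19, by distance in kb of the gene's start from that of Adam19. Adam19 and Cyfip2 (red) lie at -9.82 and -6.61, values that depend on the prior count because the ΔAgo2 libraries are near 0, and the other 7 genes lie between -0.37 and 0.57.

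The genes whose log2 CPM was most like that of Adam19 over the 8 libraries were Wasf3 (Pearson r 0.995), Tbx5 (0.986), Lama1 (0.980), Hoxc4 (0.978) and Adgrl3 (0.977). The libraries fall into 2 genotypes, so that these values describe a shared difference between genotypes and carry no p. Wasf3, a subunit of the WAVE complex, had 98, 50, 146 and 43 counts in the wild-type and 1, 0, 0 and 0 counts in the ΔAgo2 replicates, at least 24.8-fold lower. Tbx5, a transcription factor of heart, forelimb and lung development, had 168, 59, 323 and 186 counts in wild-type and 0 in every ΔAgo2 library, at least 59.2-fold lower. Lama1, a laminin chain, was at least 7.44-fold lower and Hoxc4, a homeobox factor, at least 9.59-fold lower. Adgrl3, an adhesion receptor, was the only one of the 5 not at the floor in ΔAgo2 libraries, with 46 to 155 counts in the wild-type and 9 to 27 counts in the ΔAgo2 libraries. These 5 genes lie on other chromosomes than Adam19. Among the ADAM genes, the same measure with Adam19 ran from -0.56 for Adam10 to 0.49 for Adam22.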

How the data were processed

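Per the labels and methods, the authors purified total RNA, prepared stranded mRNA libraries, sequenced paired ends, aligned reads with STAR to mm10 and counted them with featureCounts. Whole, unscaled read counts per gene were deposited, and the authors also deposited TPM values, scaled to gene length and library total. The annotation release and strand setting are not given in the sources used here, so overlapping genes may share reads. Names, positions and 3′ UTRs came from the GENCODE annotation of GRCm38 (93 identifiers had no match), and promoters and microRNAs from RefSeq.

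Genes passing filterByExpr were normalized with TMM and tested two-sided by the quasi-likelihood method of edgeR 4.0.16 in R 4.3.3, with genotype as the only factor and Benjamini-Hochberg adjustment over 14228 genes. CPM used TMM-scaled library sizes. A group with at most 3 counts in every library was at the floor, and folds against it used 3 counts in each library. Members and lists were chosen with earlier results of these data known. Apart from the 9 members, genes named were every other ADAM gene with 10 or more counts in a library, and for each list those with an adjusted p under 0.05 and the 5 highest in mean TPM. Adamts2, Tspan17, Nrg1, Il6ra, Ptk7, App and other genes named by their difference alone were chosen after their values were seen. Alternatives were DESeq2 1.42.0, limma-voom and limma on log2(TPM + 1) and log2(TPM + 0.1) (limma 3.58.1), other size factors and filters, a GC correction, a replicate block, and each library left out. Of these, DESeq2 is the tool that the study's methods name for differential expression.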

Additional observations from a re-analysis of the deposited data

Results flagged for a closer look

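In 169 groups of 4 libraries examined, 5 genes had 1 library far from the other 3 (gap over range above 0.829), and chance gives about 1 in 20 such groups. None was among the 9 ADAM genes. Hbegf, a ligand shed by ADAM proteases, reached 56.0 CPM in ΔAgo2 replicate 3, and the other 3 libraries of the group had 35.2 to 35.5 CPM (ratio 0.982). Tspan14, a partner of Adam10, had only 40.3 CPM in ΔAgo2 replicate 4, and the other 3 libraries of the group had 47.3 to 48.8 CPM (ratio 0.841). Timp1, a metalloprotease inhibitor, reached 69.1 CPM in wild-type replicate 4, and the other 3 libraries of the group had 24.3 to 27.1 CPM (ratio 0.896). Aplp2, a shed relative of App, reached 807 CPM in wild-type replicate 3, and the other 3 libraries of the group had 348 to 382 CPM (ratio 0.891). Pecam1, an endothelial marker, had 1 count in wild-type replicate 4 against 13 to 20 counts (ratio 0.92).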

How the results depend on the processing

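The number of genes called, 42 in all, was 399 with DESeq2, 143 without a filter on low counts, 71 with a GC correction and 15 with log2(TPM + 1), and between 1 and 113 with each library left out, the lowest without ΔAgo2 replicate 1 and the highest without wild-type replicate 4. The replicate numbers did not pair the libraries (correlations of same-numbered deviations -0.14, -0.049, 0.38 and 0.028), and blocking on replicate number called 18 genes, or 65 with the GC correction. Under the block the Cyfip2 call was lost (adjusted p = 0.0508 in edgeR), so that 0 neighbours of Adam19 were called. The same count was 0 with log2(TPM + 1) and log2(TPM + 0.1), where Cyfip2 had an adjusted p of 0.383 and 0.0895 in limma, and 0 to 1 with each library left out. Counts of list genes called rose from 0 to 2 with DESeq2 for other ADAM and ADAMTS genes, and to 2 for maturation, inhibitor and tail-binding genes, which gave 0 to 1 with each library left out. For substrates and partners the count was 4 with DESeq2, 1 without a filter and 0 to 2 with each library left out. Jag1 (-2.31) and Cx3cl1 (0.96) were the 2 called without wild-type replicate 4. Of the 7 tested genes among the 9, Adam9 alone changed direction. Fold bounds were also computed with each wild-type library left out, a choice made after seeing the data, and that of Adam19 was then 71.2 to 133-fold. Depth limits Adam12 and Adam23, and Adam19 in ΔAgo2 cells to the bound given. The causes were not tested.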
